A study of Mus musculus with 6 samples.

Results

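The autophagy machinery described here comprises 39 genes, taken from the 28450 genes of the expression table by symbol. They encode the proteins that start, build and load the autophagosome, and the receptors that bring cargo to it, mitochondria included. Each symbol matched 1 row, and all 39 genes passed the filter for testing, a 6-mouse mean of 1 FPKM or more (fragments per kilobase of gene, scaled to library size). Hepatic RNA was sequenced from 3 male Acsm3 knockout mice and 3 male control mice labelled WT, all aged 12 weeks and fed a normal diet, with 1 library of bead-enriched mRNA per mouse. No source used here gives the knockout allele, the strain background or whether the gene was lost in liver alone. The ACSM3 enzyme activates medium-chain fatty acids in mitochondria, and the study set out to find how hepatic gene expression differs in mice lacking it.

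Autophagy encloses part of the cytoplasm in a double membrane and delivers it to the lysosome. The ULK kinase complex starts the process, a class III phosphatidylinositol 3-kinase (PI3K) complex marks the membrane, and a pair of ubiquitin-like conjugation reactions attaches proteins of the ATG8 family (LC3 and GABARAP) to it. In liver the pathway is known for supplying nutrients in fasting, for breaking down lipid droplets and damaged mitochondria, and for clearing the receptor p62, the product of Sqstm1, which is itself degraded with its cargo. Transcript levels do not measure the rate of this degradation.

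The libraries bore out the genotype labels. Acsm3 stood at 33.2, 34.4 and 32.2 FPKM in controls 1, 2 and 3, against 0.668, 2.92 and 1.08 FPKM in knockouts 1, 2 and 3. The hepatocyte markers Alb, Apoa1 and Ttr, which encode secreted plasma proteins, had means of 28534, 4504 and 2886 FPKM, so the labelled tissue held its defining transcripts. Depth implied by the steps between low FPKM values was 15300000 to 16300000 fragments per library. Outside the autophagy genes, 10 markers of Kupffer cells and macrophages were summed. Their sums lay at 217.5 to 331.1 FPKM in controls and at 374 to 681.2 FPKM in knockouts. By the test 5 of the 10 were higher and 1 was lower. Their log2 fold changes ran from -1.52 to 1.35, so the sum covers opposite changes. Of all tested genes 13.9% were called higher and 2.61% lower. All 6 markers of lipid-associated macrophages were higher (22.1 to 24.5 against 57.4 to 112.8 FPKM), as were 6 of 8 stellate cell and fibroblast markers (38.8 to 46.7 against 81.4 to 110.5 FPKM) and 3 of 6 endothelial markers (46.1 to 51.3 against 60.3 to 76 FPKM). No marker of these lists was at 0 in all mice. The 10 hepatocyte markers summed to 46862 to 55177 FPKM in controls and to 35163 to 39193 FPKM in knockouts, sums that rest largely on Alb. Of these 10 markers 2 were lower (Alb and Ttr), 2 were higher (Hnf4a and Cyp3a11) and the others did not pass. In such whole-tissue libraries, a change in the number of cells of a type and a change in RNA per cell cannot be told apart, and the part of these cell types in the autophagy values was not tested.

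Most of the 39 autophagy genes did not pass the test. Of them 6 rose and 0 fell, the rises being Sqstm1, Atg4a, Atg12, Gabarapl1, Fundc1 and Ulk2 (limma, adjusted p from 0.0194 to 0.0445). That is 15.4% of the autophagy genes, where 13.9% of all 10996 tested genes were called higher and 2.61% lower. The share of rises was thus close to the background. No role described below, of 4 to 6 genes each, held more than 1 of these calls. At an unadjusted p under 0.05 (limma), 12 members were higher and 1 was lower, which is 13 of 39. Over all tested genes 3887 of 10996 reached that level in either direction. The log2 fold changes of the 39 genes, on the scale of FPKM + 1 and knockout minus control, ran from -0.33 to 0.90 with a median of 0.09, where the median of all tested genes was 0.13. This scale understates changes of genes with low FPKM. In 13 members (33.3%) all 3 knockout values lay above all 3 control values, and in 1 (2.56%) they lay below. In all tested genes these shares were 33.9% and 7.91%.

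Most genes thus lay higher in the knockouts on the deposited scale, and the calls among the 39 genes depended on that scale. After median-ratio rescaling, which sets the typical gene to no change, 7.57% of all genes were called higher and 6.7% lower, and among the 39 members Sqstm1 alone remained higher and Atg3 became lower. The other 5 members lost their calls, with adjusted p (limma) from 0.0719 for Atg4a to 0.356 for Ulk2, and each kept a positive fold change. Leaving out mice also changed the count, since 2 members were called without control 1, 1 without control 2 and 1 without knockout 1, and 6 (5 higher, 1 lower) without knockout 3. Without control 3 or without knockout 2 limma called 0 members, while 9 were higher and 2 lower, and 7 higher and 1 lower, at an unadjusted p under 0.05. Over all tested genes, 543, 270 and 226 were called higher without controls 1, 2 and 3. Without knockouts 1, 2 and 3 these counts were 402, 248 and 1968, so they moved along with those of the members. With voom on fragments recovered from the FPKM, 8 members were higher and 1 was lower. That fit called 1813 of all 10985 genes tested higher and 316 lower.

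**Figure D1:**
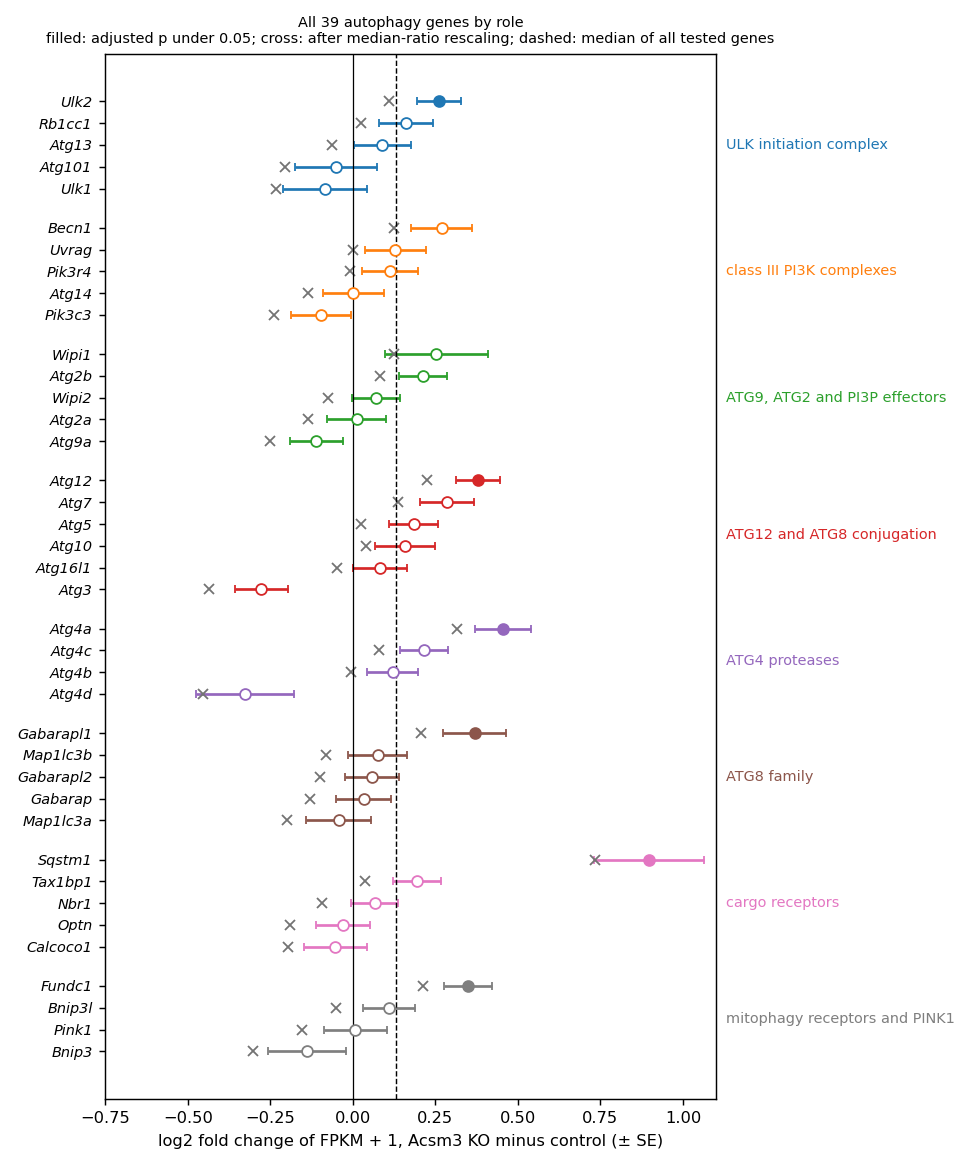
Log2 fold change of FPKM + 1 (knockout minus control, ± SE, n = 3 mice per group) for the 39 autophagy genes, grouped by role. Filled circles passed an adjusted p of 0.05, crosses give the value after median-ratio rescaling, and the dashed line is the median of all tested genes, 0.13. Sqstm1, at 0.90, lies apart from the other members on both scales.

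Promoter sequences are shown for 3 of the genes that rose, Sqstm1, Gabarapl1 and Ulk2, as a cargo receptor, an ATG8 gene and a kinase gene. Sqstm1 held the largest change and the call that outlasted rescaling, while Gabarapl1 and Ulk2 had the highest adjusted p of the 6 genes. Each is the 250 bases before the RefSeq transcription start (GRCm38.p6), read on the gene's own strand, at chr11:50210821-50211070 (minus strand), chr6:129532942-129533191 (plus strand) and chr11:61855093-61855342 (minus strand). Capitals mark a match to one of the motifs searched.
Sqstm1: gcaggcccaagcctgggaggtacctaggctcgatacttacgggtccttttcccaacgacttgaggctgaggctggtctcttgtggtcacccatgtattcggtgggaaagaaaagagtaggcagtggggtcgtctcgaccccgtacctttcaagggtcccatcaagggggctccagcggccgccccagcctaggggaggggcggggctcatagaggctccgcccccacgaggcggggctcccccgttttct
Gabarapl1: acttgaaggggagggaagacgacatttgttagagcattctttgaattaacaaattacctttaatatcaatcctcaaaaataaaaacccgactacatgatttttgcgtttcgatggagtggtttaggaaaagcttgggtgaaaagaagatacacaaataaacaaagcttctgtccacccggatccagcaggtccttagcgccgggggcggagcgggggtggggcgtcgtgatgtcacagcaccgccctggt
Ulk2: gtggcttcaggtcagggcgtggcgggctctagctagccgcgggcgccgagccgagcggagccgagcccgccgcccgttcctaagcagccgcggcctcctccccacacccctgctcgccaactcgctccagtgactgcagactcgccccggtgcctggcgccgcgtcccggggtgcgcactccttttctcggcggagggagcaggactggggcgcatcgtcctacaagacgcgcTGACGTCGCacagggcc

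The motifs were the E-box CACGTG, which lies in the elements bound by the lysosomal regulator TFEB and by many other factors, and TGACNNNGC, the core of the antioxidant response element bound by NRF2. Both strands were searched, and neither motif contains the other. In windows of 300 bases (250 before and 50 after a start), found for 32 of the 39 members, the E-box stood in 5 members (15.6%): Atg14, Atg3, Atg5, Atg7 and Bnip3. Of all 27025 genes with such a window 8.09% held it. The antioxidant core stood in 4 members (12.5%), Atg13, Map1lc3b, Tax1bp1 and Ulk2, and in 13.99% of all genes. Of the genes that rose, Ulk2 had a match, 17 bases before its start. Sqstm1 and Gabarapl1 had neither set of letters in the bases printed, which says nothing of sites elsewhere.

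Among cargo receptors, which bind ubiquitinated or other marked cargo and ATG8 proteins at once, Sqstm1 rose and the other 4 did not pass. Sqstm1 stood at 125.3, 96.1 and 99.6 FPKM in controls 1, 2 and 3, against 249.2, 175.9 and 179 FPKM in knockouts 1, 2 and 3. Every knockout lay above every control, and knockout 1 was the highest of the 6 mice, as control 1 was among controls. Mean levels were 107 ± 15.9 FPKM in controls and 201.4 ± 41.4 FPKM in knockouts (SD, n = 3), a 1.88-fold difference (log2 fold change 0.90 ± 0.17, SE; limma, adjusted p = 0.0213). After median-ratio rescaling the log2 fold change was 0.73 (adjusted p = 0.0232). The call was lost without control 2 (adjusted p = 0.0749), control 3 (0.074) or knockout 2 (0.0566), and with no filter on low genes (0.0566). The gene lies on the minus strand of chromosome 11 at 50199366 to 50210827 (GRCm38). It shares 580 bp of its 3356 bp of exons with Mrnip on the opposite strand, at a mean of 0.889 FPKM, and no source used here says if strand was kept.

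The other receptors stayed within narrow ranges. Nbr1, a p62-related receptor, was at 34.4, 37.2 and 37.2 FPKM in controls, against 37.9, 36.5 and 39.6 FPKM in knockouts (adjusted p = 0.541, limma). Optn, which encodes optineurin, a receptor of mitophagy and of bacteria, was at 32.8 to 35.9 FPKM in controls and at 31.2 to 36.3 FPKM in knockouts. Both genes had overlapping groups. Tax1bp1, another ubiquitin-binding receptor, was at 19.5, 21.2 and 21.7 FPKM in controls, against 23, 24.6 and 24.3 FPKM in knockouts, so its groups did not overlap, but it did not pass (log2 fold change 0.19 ± 0.07, adjusted p = 0.109). Calcoco1, an ER and Golgi receptor, was at 6.76 to 7.54 FPKM in controls and at 6.05 to 7.55 FPKM in knockouts.

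Shares within a mouse do not depend on how libraries are scaled to each other. Sqstm1 made up 56.3, 49.2 and 50.3% of the summed FPKM of the 5 receptors in controls 1, 2 and 3, and 70.5, 63.5 and 63.9% in knockouts 1, 2 and 3. The groups did not overlap, and the exact 2-sided permutation test over mice gave p = 0.1, the smallest that 3 mice against 3 allow. The shares of Nbr1, Optn and Calcoco1 were lower in every knockout than in every control, also at p = 0.1 by the exact permutation test. Those shares are bound to move against that of Sqstm1, since each set sums to 100%.

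The ATG8 family are the ubiquitin-like proteins joined to the autophagosome membrane, and 1 of its 5 genes rose. Gabarapl1 stood at 210.3, 183.3 and 168.7 FPKM in controls 1, 2 and 3, against 239.6, 237.8 and 246.8 FPKM in knockouts 1, 2 and 3. The knockouts lay close together and above every control, and controls were spread more widely. The means were 187.4 ± 21.1 and 241.4 ± 4.76 FPKM (SD, n = 3), a log2 fold change of 0.37 ± 0.10 (SE; limma, adjusted p = 0.0445). The call was lost without control 2, control 3 or any 1 of the knockouts (limma, adjusted p from 0.0792 to 0.123). It was also lost with no filter (0.0916), with the replicate number as a block (0.0576) and after median-ratio rescaling (0.2). With quantile normalization, the other scaling used, it was kept (log2 fold change 0.39; limma, adjusted p = 0.0266).

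Gabarap stood at 106.7, 109.4 and 92.7 FPKM in controls, against 103.1, 105.5 and 106.5 FPKM in knockouts, which overlap (adjusted p = 0.812, limma). Its paralog Gabarapl2 was at 17.8 to 19.7 FPKM in controls and at 18 to 20.8 FPKM in knockouts. Map1lc3b, the source of the LC3B protein used as an autophagosome marker, was at 16.1 to 18.5 FPKM in controls and at 17.3 to 20.3 FPKM in knockouts. Map1lc3a was at 14.4 to 18.1 FPKM in controls and at 15.2 to 16.9 FPKM in knockouts. None of these 4 genes had groups apart. These genes are related to each other and have pseudogenes, and no source used here says how shared fragments were assigned, so their values are uncertain to that extent.

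Gabarapl1 was the most abundant of the 39 genes by FPKM and took most of the ATG8 total. Its share of the summed ATG8 FPKM was 56.3, 53.4 and 53.9% in controls 1, 2 and 3 and 60.7, 59.6 and 60.6% in knockouts 1, 2 and 3 (exact 2-sided permutation p = 0.1). Gabarap came next with a mean share of 30 ± 1.7% in controls and 26.2 ± 0.182% in knockouts (SD, n = 3). The order below these depended on the length used. The FPKM follow the union of all annotated exons, 7517 bp for Map1lc3b, against 2532 bp for its principal transcript. Dividing the same fragments by principal transcript length moved the mean of Map1lc3b over the 6 mice from 18 to 53.4 per kb on the same scale, and those of Gabarapl2 and Map1lc3a from 19.1 to 26.5 and from 16.2 to 17.2. Gabarapl1 (237.2) and Gabarap (141.9) stayed above these on that scale, where Sqstm1 (254) rather than Gabarapl1 was the highest of the 39 genes. Fold changes between genotypes are not touched by this choice, since length is the same in all mice.

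**Figure D2:**
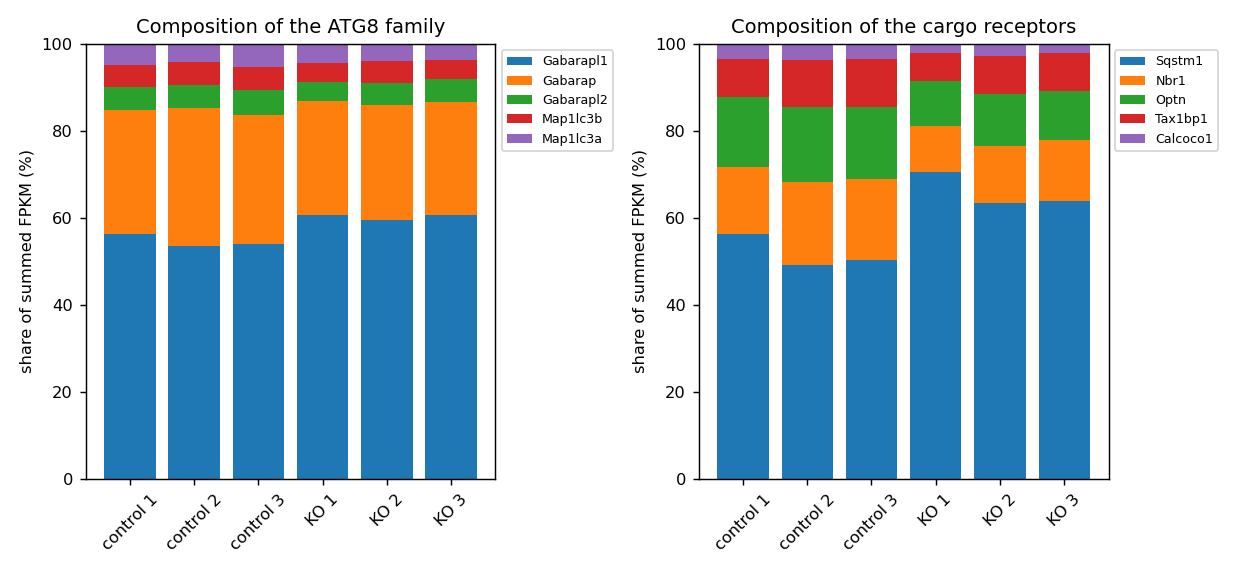
Share of each gene in the summed FPKM (%) of the 5 ATG8 genes (left) and the 5 cargo receptors (right), one bar per mouse. Gabarapl1 takes 53.4 to 56.3% in controls and 59.6 to 60.7% in knockouts, and Sqstm1 takes 49.2 to 56.3% in controls and 63.5 to 70.5% in knockouts.

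The ATG4 proteases cut ATG8 precursors to expose the residue used in conjugation and later free ATG8 proteins from membranes, and 1 of the 4 rose. Atg4a, the form known to favour GABARAP-type substrates, was at 4.46, 5.22 and 4.33 FPKM in controls 1, 2 and 3, against 6.44, 6.97 and 6.85 FPKM in knockouts 1, 2 and 3. The knockouts were all above the controls, by 44.7% in the mean (log2 fold change 0.45 ± 0.09; limma, adjusted p = 0.0221). This call was lost without control 1 (0.0619), control 3 (0.0758), knockout 1 (0.0543) or knockout 2 (0.0851), with no filter (0.0532) and with quantile normalization (0.0991). Atg4b stood at 3.24, 3.27 and 3.26 FPKM in controls, the tightest group of any member, and at 3.5, 3.45 and 3.96 FPKM in knockouts. Atg4c stood at 4.93, 4.64 and 4.48 FPKM in controls, against 5.63, 5.77 and 5.39 FPKM in knockouts. Both had groups apart and neither passed (adjusted p = 0.306 and 0.0807, limma). Atg4d was at 3.23 to 4.8 FPKM in controls and at 2.38 to 3.35 FPKM in knockouts, the lowest fold change of the 39 genes (-0.33 ± 0.15, adjusted p = 0.166). Its exons overlap those of Kri1 on the opposite strand over 19.3% of their length.

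In the conjugation machinery, ATG7 activates ATG12 and ATG8, ATG10 and ATG3 pass them on, and ATG12 joined to ATG5 works with ATG16L1 as the ligase. Here 1 of 6 genes rose. Atg12 stood at 12.3, 12.5 and 12.4 FPKM in controls 1, 2 and 3, against 16, 15.8 and 17.3 FPKM in knockouts 1, 2 and 3. Both groups were tight and well apart, with means of 12.4 ± 0.122 and 16.4 ± 0.805 FPKM (SD, n = 3). The log2 fold change of 0.38 ± 0.07 had an adjusted p of 0.0194 (limma), the smallest of the 39 genes. It was not called without control 1 (0.0527), control 2 (0.0677), control 3 (0.0671), knockout 1 (0.0537) or knockout 2 (0.0626), nor with quantile normalization (0.0991).

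Atg3, the ATG8-conjugating enzyme, went the other way. It stood at 24.5, 23.3 and 25.2 FPKM in controls 1, 2 and 3, against 19.7, 18.5 and 21.7 FPKM in knockouts 1, 2 and 3, and it was the 1 member with every knockout below every control. It missed the threshold on the deposited scale (-0.28 ± 0.08; limma, adjusted p = 0.0584) and passed after median-ratio rescaling (-0.43, adjusted p = 0.0381), without knockout 3 (0.0369) and with voom (0.0497). The ratio of Atg12 to Atg3, free of scaling between mice, was 0.499, 0.535 and 0.491 in controls and 0.815, 0.855 and 0.799 in knockouts (exact 2-sided permutation p = 0.1). This pair was chosen after its values were seen. Ratios of other pairs were also computed. Exact permutation p was likewise 0.1 for Atg2b to Atg2a, Gabarapl1 to Gabarap and Sqstm1 to Nbr1. It was also 0.1 for Atg4a to Atg4d and for Bnip3 to Bnip3l, and 0.2 for Ulk2 to Ulk1.

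Atg7, the shared activating enzyme, was at 7.19, 7.7 and 6.52 FPKM in controls, against 9.03, 9.21 and 8.46 FPKM in knockouts, apart but not called (0.28 ± 0.08; limma, adjusted p = 0.0574). It passed with the replicate block (0.0494) and with voom (0.0431). Atg5 had the highest FPKM of this step, though Atg3 lay above it per kb of principal transcript (34 against 25.9). Atg5 was at 24.7, 25.6 and 22.4 FPKM in controls, against 28.2, 27.1 and 27.4 FPKM in knockouts, also apart and not called (adjusted p = 0.129). Atg16l1 was at 3.23 to 3.7 FPKM in controls and at 3.56 to 4.03 FPKM in knockouts. Atg10 was the least abundant of the 39 genes at a mean of 2.67 FPKM, resting on 60 to 82 fragments per mouse, and its groups overlapped.

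The ULK complex joins the kinase ULK1 or ULK2 to ATG13, ATG101 and the scaffold RB1CC1 (FIP200), and 1 of its 5 genes rose. Ulk2 stood at 11.4, 11.7 and 10.8 FPKM in controls 1, 2 and 3, against 13.8, 13.5 and 13.8 FPKM in knockouts 1, 2 and 3. The 21.5% difference in means was small but larger than the spread in either group (log2 fold change 0.26 ± 0.07; limma, adjusted p = 0.0423). Leaving out any 1 mouse ended this call (adjusted p from 0.0662 to 0.122), as did no filter (0.0651), no trend in the variance (0.0527), the replicate block (0.0618) and quantile normalization (0.255). Its paralog Ulk1 was at 10.6 to 10.9 FPKM in controls, against 9.9, 12.3 and 8.38 FPKM in knockouts 1, 2 and 3. The knockouts thus spread on both sides of the controls, which gave Ulk1 a coefficient of variation of 1.02% in controls and 19.4% in knockouts. Atg101 had a like pattern, with 13.6, 12.5 and 12.6 FPKM in controls and 15.2, 11 and 11.4 FPKM in knockouts 1, 2 and 3. Over all 39 genes the median coefficient of variation was 6.85% in controls and 6.73% in knockouts. Atg13 and Rb1cc1 had overlapping groups, with means of 11.5 and 12.4 FPKM and of 4.75 and 5.43 FPKM in controls and knockouts.

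The class III PI3K complexes pair the lipid kinase PIK3C3 (VPS34) and PIK3R4 with beclin 1 and either ATG14, for starting autophagosomes, or UVRAG, for endosomes. None of their 5 genes passed (limma; 1 had an unadjusted p under 0.05, and voom also called 0). Becn1 stood at 6.97, 5.97 and 5.85 FPKM in controls 1, 2 and 3, against 7.88, 8.21 and 7.14 FPKM in knockouts 1, 2 and 3. These groups did not overlap, though knockout 3 was only slightly above control 1 (0.27 ± 0.09; limma, adjusted p = 0.0864). Exons of Cntd1 on the opposite strand cover 43.9% of Becn1 exon sequence, and Cntd1 had a mean of 0.0239 FPKM. Atg14 was nearly equal in the groups, with means of 5.08 and 5.09 FPKM. Pik3c3 (6.03 and 5.59 FPKM), Pik3r4 (2.63 and 2.92 FPKM) and Uvrag (3.38 and 3.79 FPKM) had overlapping groups.

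Building the membrane also uses ATG9A, a lipid scramblase carried on vesicles, the lipid transfer proteins ATG2A and ATG2B, and WIPI proteins that read the lipid mark. None of these 5 genes passed (limma; 1 had an unadjusted p under 0.05, and voom called 1, Atg2b). Atg2b stood at 3.06, 3.21 and 3.27 FPKM in controls, against 3.77, 4.02 and 3.74 FPKM in knockouts, groups that did not overlap (0.21 ± 0.07; limma, adjusted p = 0.0873). Its paralog Atg2a stood at 8.82, 7.51 and 7.74 FPKM in controls, against 8.55, 8.32 and 7.4 FPKM in knockouts, which overlap. Wipi1 was at 2.62 to 2.99 FPKM in controls, against 3.81, 4.42 and 2.58 FPKM in knockouts 1, 2 and 3. Knockout 3 was thus below every control while the other knockouts were above, and Wipi1 passed once knockout 3 was left out (adjusted p = 0.0324). Wipi2 and Atg9a had overlapping groups, with means of 7.21 and 7.61 FPKM and of 5.99 and 5.47 FPKM.

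Of the 4 mitophagy genes, Fundc1 rose. It encodes an outer mitochondrial membrane receptor of hypoxic mitophagy, and stood at 4, 4.05 and 3.84 FPKM in controls 1, 2 and 3, against 5.62, 5.08 and 5.28 FPKM in knockouts 1, 2 and 3. The groups were tight and apart, and the means differed by 34.3% (log2 fold change 0.35 ± 0.07; limma, adjusted p = 0.0269). The call was lost without control 1 (0.0667), control 2 (0.0821), control 3 (0.0887), knockout 1 (0.0765) or knockout 2 (0.0767), with no filter (0.0584) and with quantile normalization (0.154). Each mouse gave 141 to 206 fragments for this gene, and Fundc1 lay below a filter of 5 FPKM. Bnip3, a receptor known to respond to hypoxia and second in FPKM among the 39 genes, was at 169.1, 146.7 and 171.8 FPKM in controls, against 127, 151.9 and 165.2 FPKM in knockouts. Bnip3l (NIX) was at 24.3 to 26.6 FPKM in controls and at 26.2 to 29.9 FPKM in knockouts, and the kinase gene Pink1 at 54.8 to 67 and 57.1 to 63.1 FPKM. All 3 had overlapping groups.

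**Figure D3:**
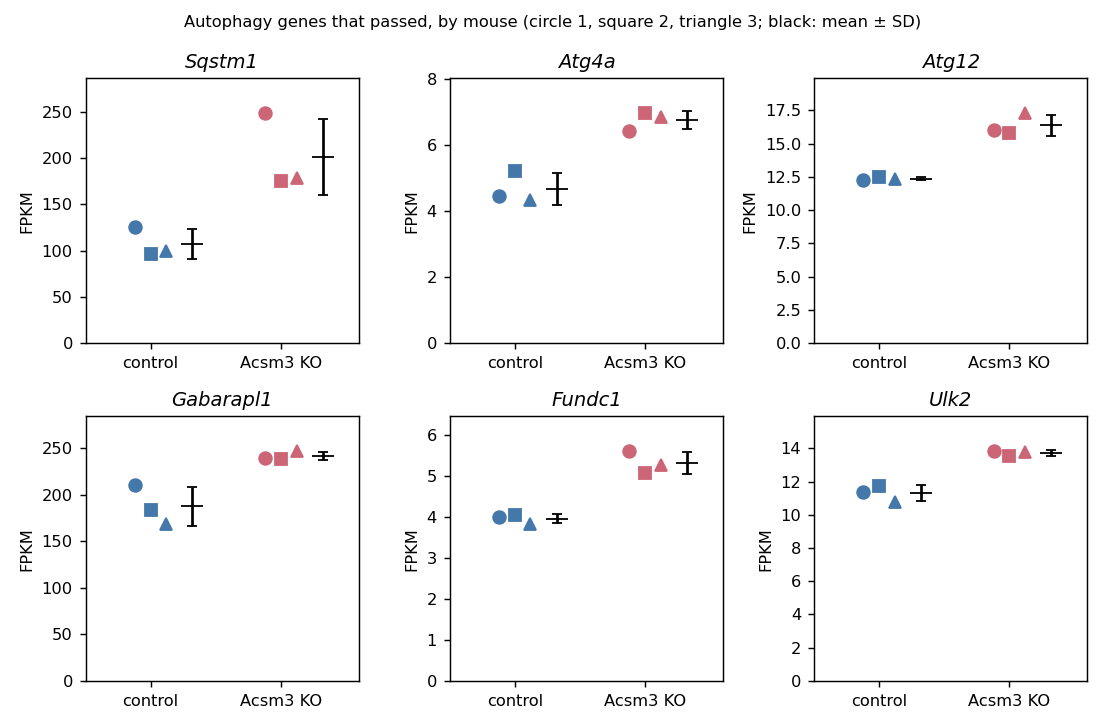
FPKM of the 6 autophagy genes that passed (vertical axes from 0), one symbol per mouse, with the group mean ± SD (n = 3) in black. In each gene the 3 knockouts lie above the 3 controls, and Sqstm1 shows both the largest step and the widest spread among knockouts (175.9 to 249.2 FPKM).

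Around the 39 genes, 7 lists of other genes of the pathway were read from the same fit. Of 119 tested genes 24 (20.2%) were higher and 0 lower (limma), where 13.9% and 2.61% of all tested genes were. At an unadjusted p under 0.05 (limma), 46 were higher and 5 lower, and voom called 29 higher and 1 lower. Over all tested genes 3887 of 10996 had an unadjusted p under 0.05, and voom called 1813 of 10985 higher and 316 lower. The rises lay mostly in lysosomal genes and in targets of NRF2, the transcription factor encoded by Nfe2l2. After median-ratio rescaling 16 were higher and 6 lower, against 7.57% and 6.7% of all genes. The count fell to 10 genes without control 1, 4 without control 2, 3 without control 3, 7 without knockout 1 and 5 without knockout 2, and was 32 without knockout 3.

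NRF2 is held back by KEAP1, which p62 can bind, and Sqstm1 is itself a known NRF2 target. In this list 4 of 8 genes rose, with a list median of 0.54, and 4 were called after median-ratio rescaling. The shares of all tested genes called higher were 13.9% and 7.57% on these scales. The count in this list was 4 without control 1, 3 without knockout 1 and 5 without knockout 3. It was 2 without control 2, without control 3 or without knockout 2. In the fits without 1 mouse, 226 to 1968 of all tested genes were called higher. Hmox1, which encodes the haem-degrading enzyme haem oxygenase 1, was at 12.6, 10.7 and 9.12 FPKM in controls 1, 2 and 3, against 28.5, 31.2 and 26.5 FPKM in knockouts 1, 2 and 3. The sulfiredoxin gene Srxn1 stood at 19.1, 16.5 and 15.1 FPKM in controls, against 43.2, 44.1 and 37.8 FPKM in knockouts. Both were called whichever mouse was left out. Their log2 fold changes were 1.34 ± 0.12 and 1.26 ± 0.11 (limma, adjusted p = 0.00546 and 0.00423). Gclc, the catalytic subunit for glutathione synthesis, also rose (0.62 ± 0.14, adjusted p = 0.0304), a call kept in 2 of the 6 fits that left out a mouse (adjusted p up to 0.0994) and lost with no filter. Nfe2l2 was itself higher, at 20.3, 16.1 and 15.1 FPKM in controls, against 31.5, 25 and 31.1 FPKM in knockouts (0.74 ± 0.14; limma, adjusted p = 0.0213). This call was lost with no filter and without control 2, control 3 or knockout 1 (adjusted p up to 0.0761). Keap1 was at 6.39 to 9.92 FPKM in controls and at 8.36 to 10.5 FPKM in knockouts, with overlapping groups.

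Nfe2l2 was the 1 gene called among 13 tested transcription factors known to act on autophagy genes. That is 7.69%, below the 13.9% of all tested genes called higher. The list median was 0.08, where that of all tested genes was 0.13. After median-ratio rescaling 1 of 12 tested was higher and 1 lower, where 7.57% and 6.7% of all genes were. The master regulator gene Tfeb stood at 1.86, 1.6 and 1.35 FPKM in controls, against 2.11, 1.43 and 1.07 FPKM in knockouts, with overlapping groups (adjusted p = 0.846, limma).

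Of 26 lysosomal genes 12 rose, with a median of 0.35, and 8 genes were called after median-ratio rescaling, where 13.9% and 7.57% of all tested genes were called higher. Of all tested genes 543, 270 and 226 were called higher without controls 1, 2 and 3. Without knockouts 1, 2 and 3 these were 402, 248 and 1968. The count in the lysosomal list was 5, 2 and 1 without controls 1, 2 and 3. Without knockouts 1, 2 and 3 it was 4, 2 and 14. The largest rises were those of Gpnmb (3.19 ± 0.34), Cd63 (1.97 ± 0.29) and the proton pump subunit gene Atp6v0d2 (1.47 ± 0.25; limma, adjusted p from 0.00638 to 0.018). Gpnmb was called whichever mouse was left out. Cd63 was lost without control 3 (0.0545), and Atp6v0d2 with no filter and without any 1 of the controls or knockout 2 (adjusted p up to 0.0671). Gpnmb also stands in the list of lipid-associated macrophage markers. All 3 genes were highest in knockouts 1 and 2 and lower in knockout 3, for Gpnmb at 18, 12.5 and 5.92 FPKM in knockouts 1, 2 and 3 against 0.225 to 0.413 FPKM in controls. The summed Kupffer cell and macrophage markers were at 660.4, 681.2 and 374 FPKM in knockouts 1, 2 and 3. The part of these cells in the lysosomal values was not tested.

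The other lists had calls near or below the 13.9% of all tested genes called higher. The shares were 14.3% of fusion genes, 9.68% of mTORC1 and AMPK genes, 6.67% of other selective receptors and 8.33% of other phagophore genes. Of 14 tested fusion genes, whose products join autophagosomes to lysosomes, 2 rose: the adaptor gene Plekhm1 (3.09 to 3.1 FPKM in controls, 4.1 to 6.39 FPKM in knockouts, adjusted p = 0.0319) and the SNARE gene Snap29 (9.22 to 10.3 and 12.5 to 13.9 FPKM, adjusted p = 0.0247, limma). Of 31 tested genes of mTORC1 and AMPK, the kinases that restrain and promote autophagy, 3 rose. They were Rragd (0.82 ± 0.19) and Lamtor3 (0.40 ± 0.10), which hold mTORC1 at the lysosome, and the mTORC1 inhibitor gene Sesn3 (0.64 ± 0.11). Of 15 other selective receptors the ER-phagy receptor gene Retreg1 rose (0.46 ± 0.10), and of 12 other phagophore genes Sh3glb1 (0.31 ± 0.07), whose product binds beclin 1 through UVRAG. Plekhm1, Rragd and Sesn3 were also called after median-ratio rescaling, and Snap29, Lamtor3, Retreg1 and Sh3glb1 were not (adjusted p from 0.0558 to 0.149). These 7 genes were each called in at most 1 of the 6 fits that left out a mouse. Median-ratio rescaling also called genes of these lists lower. They were 2 fusion genes, 1 mTORC1 and AMPK gene, 2 other selective receptors and 0 other phagophore genes. Of all genes it called 6.7% lower.

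**Figure D4:**
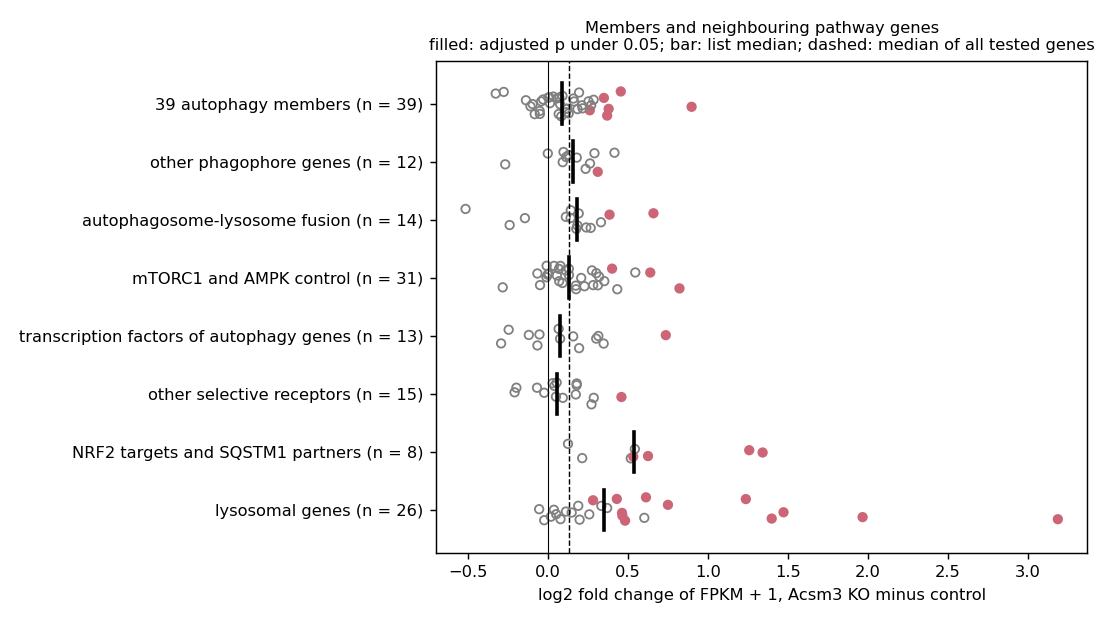
Log2 fold change of FPKM + 1 (knockout minus control) for the 39 autophagy genes and 7 lists of related genes, one point per tested gene. Filled points passed an adjusted p of 0.05, bars are list medians, and the dashed line is the median of all tested genes (0.13). The medians of the NRF2 list (0.54) and the lysosomal list (0.35) lie to its right, and that of the autophagy genes (0.09) lies slightly to its left.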

How the data were processed

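The data are FPKM as deposited by the authors in 1 table, with a column for each of the 6 mice and the position of each gene. HISAT2 2.0.4, Bowtie2 2.2.6, StringTie 1.3.0 and GRCm38 appear in the submitters' processing notes, which do not say what each was used for. No source used here gives strand or the handling of shared fragments. Columns were matched to samples by title.

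Tests used log2(FPKM + 1). Genes averaging 1 FPKM or more, 10996 in all, were fitted with limma 3.58.1 in R 4.3.3 (lmFit, eBayes with trend), with Benjamini-Hochberg adjustment over all of them and a threshold of 0.05. The p-values reflect the spread among 3 animals per group, moderated across genes. Fits without 1 mouse have less power. The procedure was tested on simulated data in which 200 of 10996 genes were changed. It called 53.6% of genes changed 1.5-fold, 83.1% of those changed 2-fold and 97% of those changed 4-fold. Of its calls 3.73% were unchanged genes. Smaller differences were thus often missed.

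FPKM times the union exon length (GENCODE M21) moves in steps, and totals at which a step is 1 fragment put 98% to 98.2% of low values within 0.1 of a whole number. Recovered fragments summed to 102.85% to 103.36% of these totals, so the totals are estimates, used for depth and for voom, an alternative added after the data were seen. Arithmetic was done with Python 3.11.15 and pandas 2.3.3.

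The genes, lists and tests were chosen with earlier results of these data known. All 39 members are described by role, with values per mouse for those that passed, did not overlap or were abundant. In each other list up to 3 genes that passed with the largest fold are named. Keap1 and Tfeb were named outside this rule, after their values were seen. Castor1 and Retreg1 were matched by Ensembl identifier. A result for 1 listed gene is not reported here. Other fits changed the pseudocount (0.1 or 5), the filter (none, or 5 FPKM), the scaling (median-ratio, quantile) or the variance trend, added a replicate block, or left out each mouse. Promoter windows came from RefSeq (GRCm38.p6).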

Additional observations from a re-analysis of the deposited data

How the results depend on the processing

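The 6 members called higher kept their sign in all alternatives in which they were tested, and 21 of the 33 members not called changed sign in at least 1. For the 6 this was mostly fixed beforehand, since their groups did not overlap. Leaving out a mouse or changing the pseudocount, filter, variance trend or block could not reverse them. Only the 2 rescalings and voom could have done so. With no filter, 544 genes were called higher and 106 lower, 1 of them a member (Atg12), and 7 other pathway genes were called. A filter at 5 FPKM gave 848 higher genes. Median-ratio rescaling gave 830 higher and 735 lower genes (1 and 1 member). Quantile normalization gave 752 and 603 (2 and 1 members, the higher being Sqstm1 and Gabarapl1 and the lower Atg4d). With voom 1 member was lower. Leaving out 1 mouse each gave 226 to 1968 higher and 55 to 282 lower genes, 0 to 5 higher and 0 to 1 lower members, and 3 to 32 other pathway genes. The cause of these changes was not tested. The fit with no filter tested 26129 genes, and those that left out 1 mouse had fewer animals.

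With the replicate block 1672 genes were higher and 346 lower, 5 members were higher and 0 lower (Atg7 gained, Gabarapl1 and Ulk2 lost), and 30 other pathway genes were called. The numbers were not taken to pair the mice, since correlations of deviations within numbers 1, 2 and 3 were 0.111, 0.0918 and 0.187, though each mouse correlated best with its own number. Depth limits the least abundant members most, with 60 to 82 fragments per mouse for Atg10.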
